A study of Drosophila melanogaster with 18 samples.

Results

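The odorant-binding protein (Obp) genes of Drosophila melanogaster were taken from a table of gene counts as all genes whose FlyBase symbol starts with Obp followed by a digit, which gave 51 of the 17825 genes in the table. RNA of the isogenic wild-type strain w1118 (BDSC 5905) had been sequenced in 9 conditions with 2 libraries each, and no condition carried a transgene or a treatment. Adults 24 h old were split into female heads, male heads, female bodies (thorax with abdomen), male bodies, ovaries and testes, and whole animals were taken as embryos of 18 h, as wandering larvae of the last instar (L3) and as adults of 24 h with no sex given, by the labels. The text of the study also names a younger age for adults, so the age of the whole adults is in doubt. The labels do not say how many animals were pooled for a library or whether the libraries of a condition came from separate cultures, so p-values measure only the spread between these libraries, which may be technical.

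Odorant-binding proteins are small secreted proteins with conserved cysteines. In the antenna, support cells release them into the fluid that bathes the dendrites of olfactory neurons, where they bind odorants on the way to the receptors. Many members of the family are made elsewhere, in taste organs, fat body, glia and the glands of the male reproductive tract, from which some are passed to the female with the seminal fluid. Members with extra cysteines are called Plus-C, members that lack some are called Minus-C, and members with a doubled domain are called Dimer.

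The gene length given with the counts was the whole span of a gene, introns included, and each of the genes covered wholly by other genes, on whichever strand, had a count of 0 in every library. The library totals lay between 37198249 and 87676051 counts. The positions, in the dm6 build, placed 29 members on chromosome arm 2R, 12 on 3R, 6 on X, 2 on 2L and 2 on 3L. For 9 members, Obp47b, Obp50b, Obp50c, Obp51a, Obp57d, Obp59a, Obp69a, Obp73a and Obp85a, other genes cover the whole span, and these 9 had a count of 0 in all 18 libraries, which therefore says nothing about their transcripts. Obp50b and Obp50c have the same span. Another 7 members were overlapped in part, so that 83 of the 588 bases of Obp56e, 207 of the 1233 bases of Obp84a and 116 of the 768 bases of Obp93a could collect reads, and their levels are too low for that reason. The remaining 35 members were free of overlap, and 42 members in all had counts.

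Levels are given as CPM, counts scaled to a common library size with the trimmed mean of M-values (TMM), computed apart for the 12 libraries of adult parts and the 6 libraries of whole animals. Where levels of different genes are compared, CPM were divided by the gene's span in kb. The floor of detection was set at 3 counts, which is 0.0342 CPM of the total counts in the deepest library and 0.0806 CPM in the shallowest. A gene was called where the Benjamini-Hochberg adjusted p over all genes, from edgeR's quasi-likelihood test, was under 0.05 and the log2 fold change was at least 1 either way. Log2 fold changes are given with a standard error (SE). It was derived from that test, as the absolute log2 fold change over the square root of the F statistic, and is no separate estimate. The filter on low counts kept 36 members among 12597 genes in the adult parts and 38 members among 12335 genes in the whole animals. A member passes the filter through the condition where it is high, and the members and lists were chosen with earlier results of these data known. Counts of members, and of genes on a list, are therefore descriptions. Beside them stands the percentage of all tested genes called in the same direction. In such bulk libraries, fewer cells of a type and less RNA per cell cannot be told apart.

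The Obp genes together took 0.918% and 1.06% of the counts in larvae, 0.315% to 0.369% in heads, 0.288% and 0.340% in male bodies, 0.231% and 0.262% in testes, 0.170% and 0.177% in whole adults, 0.0704% and 0.135% in female bodies, 0.0798% and 0.0896% in embryos and 0.00872% and 0.0209% in ovaries. Single genes made up much of these sums. Obp99b alone was 80.6% and 85.7% of the Obp counts in larvae, Obp19c was 66.6% and 76.2% in ovaries, and Obp44a was 37.9% to 43.3% in heads and 55.5% and 63.8% in testes. At least 10 counts in both libraries were reached by 26 members in female heads, 27 in male heads, 17 in female bodies, 27 in male bodies, 14 in ovaries, 27 in testes, 26 in embryos, 21 in larvae and 28 in whole adults. Of the 35 members that reached this in some adult part, 18 had their highest mean level in a head condition (10 in male and 8 in female heads), 10 in testes, 7 in bodies (5 male and 2 female) and 0 in ovaries. These tallies were not made over all genes, so they describe the members only and show no trait particular to them.

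**Figure D1:**
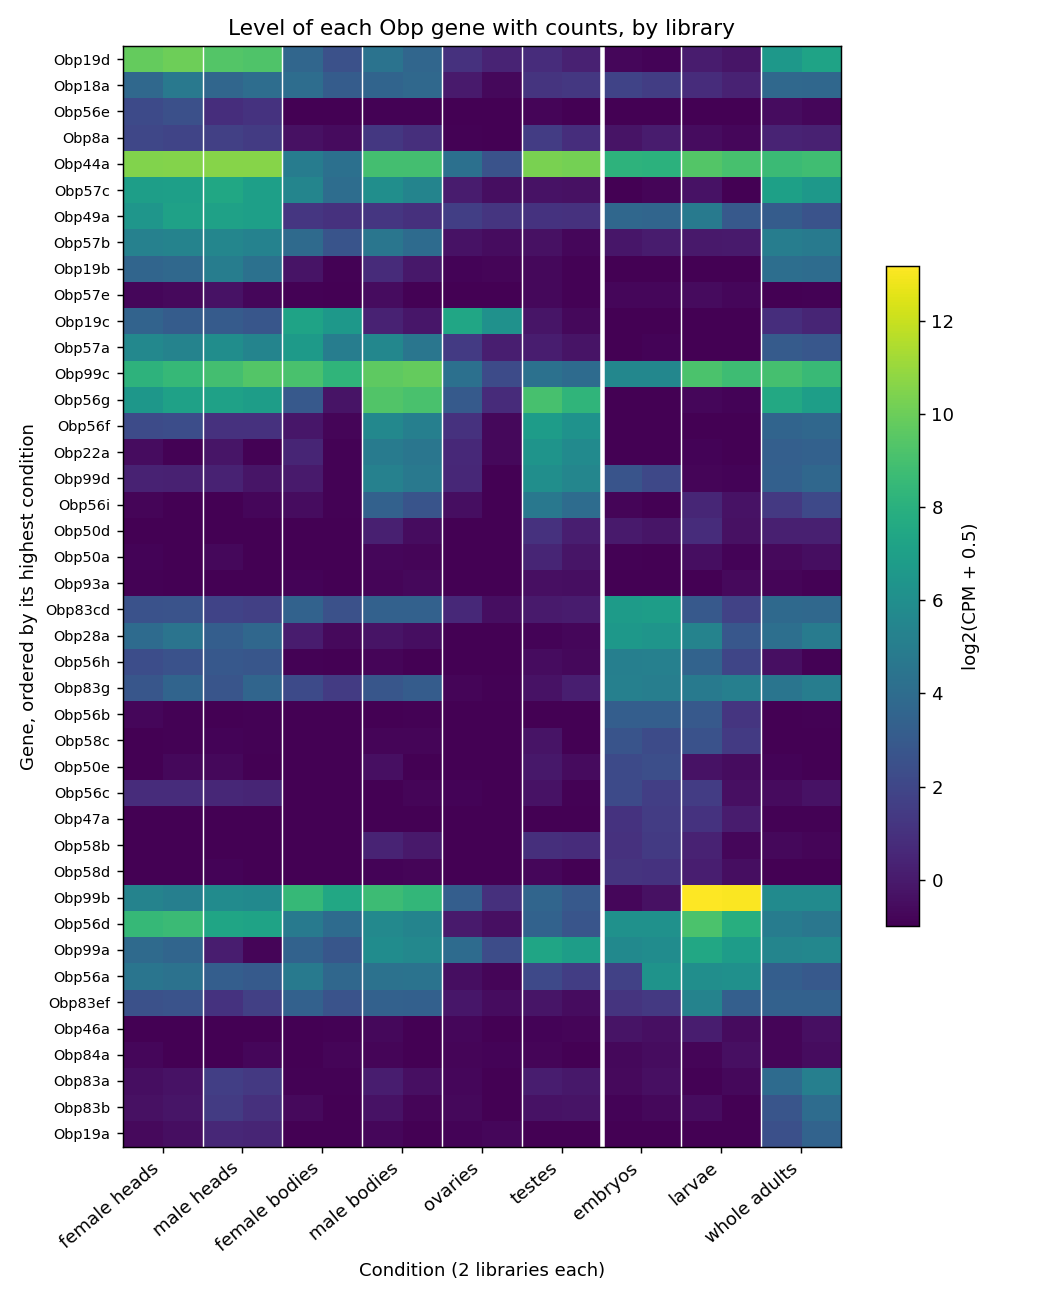
Colours give log2(CPM + 0.5) of the 42 Obp genes with counts (rows, ordered by the condition with the highest mean) in the 18 libraries (columns, 2 per condition, adult parts left of the thick line and whole animals right of it, scaled apart). Blocks of high level differ from gene to gene, and the brightest cells are Obp99b in larvae, at 9252 and 8718 CPM.

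The parts were checked against genes that mark them. The opsin ninaE of the outer photoreceptors stood at 21543 to 34999 CPM in heads and at no more than 60.1 CPM in bodies and gonads. The vitelline membrane gene Vm26Aa, made by the ovary's follicle cells, stood at 7295 and 9541 CPM in female bodies and at 12159 and 8381 CPM in ovaries, so female bodies held ovary RNA. Acp26Aa, a peptide of the male accessory gland, stood at 1298 and 840 CPM in male bodies and at 2658 and 2123 CPM in testes, so the libraries labelled testis held accessory gland RNA. Replicate 1 of both bodies had less of the flight muscle actin Act88F (437 CPM in females, 743 CPM in males) than replicate 2 (1682 CPM in females, 3045 CPM in males).

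Heads had a large set of Obp genes at higher levels than bodies in both sexes. In males, heads exceeded bodies by the call in 14 of the 36 tested members, against 20.9% of all genes tested, and 11 were called lower, against 30.6%. In females, 16 of the 36 were called higher, against 19.2% of all genes, and 2 were called lower, against 25.6%. The median log2 fold change of the 36 members was 0.44 in males and 2.15 in females, beside -0.09 and -0.36 over all genes tested. With DESeq2 size factors in place of TMM, the female split over all genes was 23.7% higher and 19.4% lower, and 17 and 2 members were called. The 11 members called higher in the heads of both sexes were Obp19a, Obp19b, Obp19d, Obp28a, Obp44a, Obp49a, Obp56c, Obp56d, Obp56e, Obp56h and Obp57c. They are listed without a share over all genes, because calls shared by the sexes were not counted over all genes. With replicate as a block, Obp57b was called higher in male heads as well (log2 1.18, adjusted p = 0.0128).

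Obp19d (FBgn0011280, also known as Pbprp2), a protein of antennal and taste organs, had 923 and 1056 CPM in female heads against 12.1 and 5.18 CPM in female bodies. It had 669 and 610 CPM in male heads against 20.4 and 12.1 CPM in male bodies. The lowest head library was thus far above the highest body library, and the log2 fold change was 6.84 (SE 0.59, adjusted p = 2.4e-05) in females and 5.30 (SE 0.55, adjusted p = 0.0001) in males. Gonads and embryos had little of it, with at most 1.49 CPM in ovaries, 1.25 CPM in testes and 0.0899 CPM in embryos.

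Obp49a (FBgn0050052), a Plus-C protein of taste organs through which bitter compounds suppress the response to sugar, had 85.8 and 136 CPM in female heads against 1.86 and 1.5 CPM in female bodies. In males it had 137 and 129 CPM in heads against 1.85 and 1.48 CPM in bodies. The log2 fold change was 6.04 (SE 0.37, adjusted p = 6.3e-06) in females and 6.31 (SE 0.37, adjusted p = 1.4e-05) in males. Obp19b, another gene of taste organs, had 12 and 13.6 CPM in female heads against 0.345 and 0.0198 CPM in female bodies, and 31.3 and 18.8 CPM in male heads against 1.17 and 0.433 CPM in male bodies. Of the remaining genes on the taste list, Obp57e, known with Obp57d for the choice of egg-laying site, stayed at or under 0.297 CPM in every library and was not called in any comparison, and Obp57d is the gene that could not be counted.

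Among the antennal genes, Obp56d (FBgn0034470) had 365 and 404 CPM in female heads against 28.2 and 14.8 CPM in female bodies, and 161 and 148 CPM in male heads against 51.3 and 40.8 CPM in male bodies. The head and body libraries did not overlap in either sex, and both differences were called, at log2 4.16 (SE 0.46) in females and 1.75 (SE 0.42) in males. Obp28a (FBgn0011283), a protein of the antenna, had 15.1 and 21.6 CPM in female heads against 0.575 and 0.138 CPM in female bodies, with 9.08 and 12.6 CPM in male heads against 0.340 and 0.216 CPM in male bodies. All 6 genes of the antennal list that could be tested, of 9 on it, passed as higher in the heads of males, beside 20.9% of all genes. In females 4 of the 6 did, beside 19.2% of all genes. There Obp83a (2.66, SE 1.01, adjusted p = 0.054) and Obp83b (2.21, SE 1.26, adjusted p = 0.18) were not called. As the list was chosen with earlier results of these data known, these tallies are descriptions. With replicate as a block, Obp83a was called in females too (adjusted p = 0.0371). Without female body replicate 1, which held 7 counts of Obp83b against 0 in replicate 2, the Obp83b value was 7.16 and was called (adjusted p = 0.0381).

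Some of the members called in heads were low in level and had few or 0 counts in bodies. Obp56h, a gene with a part in mating behaviour, had 4.68 and 5.47 CPM in female heads with 2 and 0 counts in female bodies, and 6.98 and 6.43 CPM in male heads with 3 and 0 counts in male bodies. Obp56e, a gene also made in the male tract, had 173 and 265 counts in female heads against 0 counts in both female body libraries, which makes it at least 78.0-fold higher at the floor of 3 counts per library. It had 45 and 92 counts in male heads against 1 and 2 in male bodies, all of them from the part of its span free of overlap. Obp56c was at least 21.4-fold higher in female heads (53 and 66 counts) than in female bodies (0 and 0), and Obp19a was at least 3.17-fold higher there (6 and 12 counts, against 0 and 0).

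Obp44a (FBgn0033268), a Minus-C protein found in glia of the nervous system, was the highest Obp gene per kb of span in heads of both sexes, in testes, in embryos and in whole adults. It had 1460.5 and 1512 CPM in female heads against 29.9 and 18.4 CPM in female bodies, and 1560.2 and 1554 CPM in male heads against 499 and 499 CPM in male bodies. The heads of the sexes were thus alike in level while the bodies were not, and the log2 fold change was 5.94 (SE 0.58, adjusted p = 4.6e-05) in females and 1.64 (SE 0.48, adjusted p = 0.017) in males. Per kb of span, Obp44a in female heads (1297 CPM per kb) was followed by Obp19d (724), Obp56d (388), Obp57c (203) and Obp56g (202). In male heads, Obp44a (1359 CPM per kb) was followed by Obp19d (468), Obp57c (242), Obp56g (228) and Obp99c (163). With exon length in place of the span, Obp99c, whose span is mostly intron, moved to the third place in female heads, the second place in male heads and the first place in bodies of both sexes and in whole adults.

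Fewer members were lower in heads. Obp99b (FBgn0039685), a Minus-C gene known from the fat body, where its level can differ between the sexes, was called lower in the heads of both sexes. It had 40.5 and 34.1 CPM in female heads against 356 and 177 CPM in female bodies, and 56.4 and 52.5 CPM in male heads against 429 and 335 CPM in male bodies. The log2 fold change was -2.84 (SE 0.72) in females and -2.81 (SE 0.72) in males, with no overlap of heads and bodies. The other members called lower in heads were so in males, namely Obp22a, Obp56f, Obp56i, Obp99a, Obp99d, Obp50d, Obp58b, Obp56a and the Dimer genes Obp83cd and Obp83ef, and in females Obp19c. Obp83ef, for example, had 1.60 and 2.72 CPM in male heads against 10.3 and 9.58 CPM in male bodies.

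Of the 25 calls in males, 9 were lost when a library was left out. The highest adjusted p then was 0.211 for Obp44a, 0.0866 for Obp56d, 0.127 for Obp56c and 0.149 for Obp57c, each without male body replicate 1, 0.152 for Obp83cd, 0.275 for Obp56a and 0.0869 for Obp50d, each without male head replicate 2, 0.0875 for Obp83a without male head replicate 1, and 0.114 for Obp83b without male body replicate 2. Leaving out male body replicate 1 also moved the median log2 fold change of all genes, to -0.64 from -0.09, so the shift was not confined to the members. In females, calls were lost for Obp83g (log2 1.01) and Obp19a (5.84), both without female head replicate 2. The call of Obp99b was lost without replicate 1 of the bodies of both sexes (-2.10), and also without either female head library. That pair of body libraries was left out on a choice made after seeing the data, because of their muscle transcripts. Without that pair the median log2 fold change of all genes was -0.14 in males and 0.10 in females, in place of -0.09 and -0.36.

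Other genes of odour detection were compared in the same way from a list of 15, of which 11 could be tested. In males 5 of the 11 were called higher in heads (Orco, Ir76b, a10, Os-C and Jhedup) and 2 lower (Phk-3 and Est-6). In females 4 were higher (lush, Orco, Ir76b and EbpIII) and 1 lower (Os-C). Over all genes tested, 20.9% were called higher and 30.6% lower in males, and 19.2% and 25.6% in females. The co-receptor Orco had 3.01 and 2.21 CPM in female heads against 0.192 and 0 CPM in female bodies, and 4.16 and 3.27 CPM in male heads against 0.617 and 0.541 CPM in male bodies. The gene lush, an odorant-binding protein by family whose symbol lies outside the rule, had 1.81 and 2.85 CPM in female heads, with 1.99 and 1.86 CPM in male heads.

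**Figure D2:**
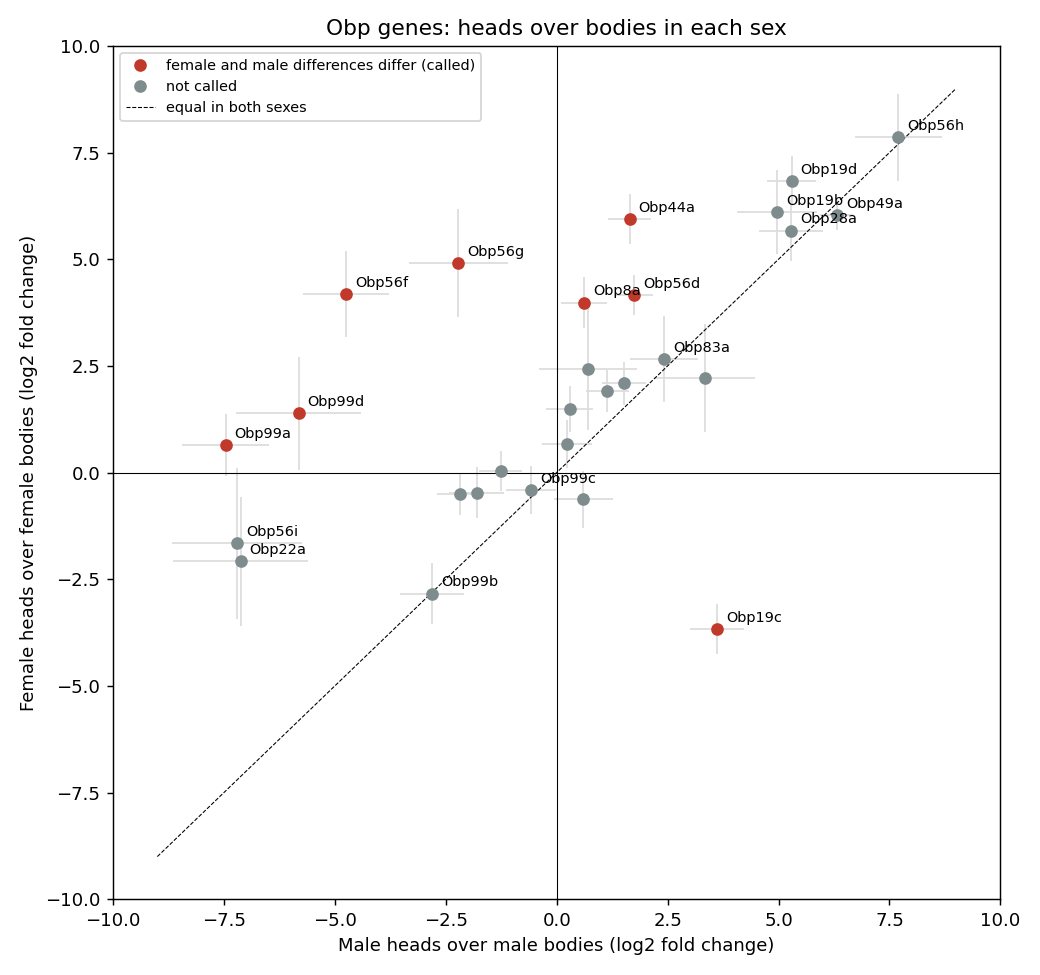
Each point is an Obp gene, placed by its log2 fold change of heads over bodies in males (horizontal axis) and in females (vertical axis), with lines of 1 SE. The 28 members with counts in all 4 conditions are drawn, red where the female and male differences differ by the test. Obp49a, Obp28a and Obp56h lie near the line of equality, and Obp19d lies above it. Obp99a, Obp99d, Obp56f and Obp56g lie far above the line, and Obp19c lies far below it.

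The sexes were compared within heads and within bodies. Between female and male heads 0 of the 36 members were called by edgeR, beside 0.0318% of all genes (0.0238% higher and 0.00794% lower in females), and 8 had an unadjusted p under 0.05, 5 of them higher and 3 lower in females. The DESeq2 Wald test called 1 member, Obp99a. This Minus-C gene had 14.6 and 11.7 CPM in female heads against 0.594 and 0.0703 CPM in male heads, at log2 5.41 (SE 0.91, adjusted p = 0.28), and with replicate as a block it was called (log2 5.59, adjusted p = 0.0204). The 6 fat body markers summed to 14409 and 22906 CPM in female heads against 2569 and 3639 CPM in male heads. That sum was carried by the yolk protein genes Yp1, Yp2 and Yp3, which are female-biased genes (3749 to 7956 CPM in female heads against 17.6 to 56.9 CPM in male heads). Lsp2 had 37.2 and 37.1 CPM in female heads against 133 and 131 CPM in male heads. The gene takeout (to) went the other way, with 21.3 and 20.1 CPM in female heads against 7.09 and 6.68 CPM in male heads. At an unadjusted p under 0.05 by edgeR, 4 of the 6 markers were higher and 1 was lower in female heads. The part of fat body in the Obp99a difference was not tested. The 3 antennal genes Obp83a, Obp83b and Obp19a were those with an unadjusted p under 0.05 and a lower level in female heads. Obp83a had 0.208 and 0.308 CPM in female heads against 2.61 and 2.04 CPM in male heads, without overlap, but none of the 3 passed the adjusted test. The other 3 testable antennal genes, Obp56d, Obp19d and Obp28a, had the higher levels in female heads by the values above, and Obp56d had an unadjusted p of 0.012.

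Between bodies, 12 of the 36 members (33.3%) were called lower in female than in male bodies, near the 27.7% of all genes. In the other direction 1 member (2.78%) was called higher, beside 24.4% of all genes. With DESeq2 size factors 18 were called lower and 1 higher, beside 37.4% and 15.6% of all genes. The median log2 fold change of the members was -1.88, beside -0.18 over all genes. Of the 6 testable genes on the list of seminal fluid members, 5 were called lower in female bodies, namely Obp8a, Obp22a, Obp56f, Obp56g and Obp56i.

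Obp56g (FBgn0034474), a protein of the ejaculatory bulb with a part in the mating plug, had 7.17 and 0.356 CPM in female bodies against 634 and 555 CPM in male bodies. The log2 fold change was -7.30 (SE 1.41, adjusted p = 0.0025). Obp56f had 0.403 and 0.0790 CPM in female bodies against 47.8 and 33.8 CPM in male bodies. Obp22a and Obp99d likewise had at most 0.882 CPM in female bodies against 23.1 CPM or more in male bodies. Obp44a was lower in female bodies too (29.9 and 18.4 CPM, against 499 and 499 CPM in male bodies), with a fold change of log2 -4.37 (SE 0.54), as was Obp99a (10.3 and 6.44 CPM, against 59.9 and 48.9 CPM). Obp50d, a Plus-C gene, had 0 counts in both female body libraries against 33 and 10 in male bodies, at least 7.56-fold lower at the floor of 3 counts per library. Obp58b, also Plus-C, had 0 counts in female bodies against 40 and 27 in male bodies, at least 11.5-fold lower.

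Some of these calls depended on single libraries or on the settings. Obp83a was lost without female body replicate 1 and without replicate 1 of both bodies (adjusted p = 0.171 at most), Obp50d in the same settings (0.118), Obp99a without replicate 1 of both bodies (0.0694) and Obp56d without male body replicate 2 (0.0966) and without replicate 1 of both bodies. Obp56d was also lost with all libraries kept, when low counts were not filtered (log2 -0.92, adjusted p = 0.0773) and when only the 2 conditions entered the fit (0.0571). With replicate as a block, Obp19b was called lower in female bodies (log2 -2.15, adjusted p = 0.0259). With replicate 1 of both bodies left out, the median log2 fold change of all genes was -0.52, in place of -0.18.

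Obp19c (FBgn0031111) was the member called higher in female bodies. It had 150 and 94.4 CPM in female bodies against 0.787 and 0.397 CPM in male bodies, a log2 fold change of 7.69 (SE 0.72, adjusted p = 0.0001). Ovaries had 165 and 70.3 CPM against 0.387 and 0.129 CPM in testes. The level in female bodies did not pass the test against ovaries (log2 0.06, SE 0.53, adjusted p = 0.97), and the ovary marker Vm26Aa was likewise within a factor of 2 of its ovary level in the female bodies. Heads of the sexes were near each other, at 10.9 and 8.34 CPM in female and 8.04 and 6.45 CPM in male heads. The gene was thus lower in heads than in bodies in females (-3.67, SE 0.59) and the reverse held in males (3.62, SE 0.61).

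A test of the difference between the head over body changes of females and of males called 8 of the 36 members, 7 with a larger value in females, beside 15.7% of all genes, and 1 with a larger value in males, beside 19.1%. With DESeq2 size factors it was 9 and 1 members, beside 22.7% and 12% of all genes. The 7 were Obp56f, Obp99a, Obp99d, Obp56g, Obp44a, Obp8a and Obp56d, and the 1 was Obp19c. Obp99a, Obp56f, Obp56d and Obp8a had heads of the sexes apart as well as bodies. Each was higher in female heads without overlap, though none was called there by edgeR. Obp56g, by contrast, had 88.9 and 137 CPM in female heads and 138 and 117 CPM in male heads. With replicate as a block Obp19d (adjusted p = 0.0189), Obp56a (0.0419) and Obp22a (0.0237) were called as well. Leaving out male head replicate 2 ended the calls of Obp99d (adjusted p = 0.0587) and Obp56d (0.0524), and Obp99d was also lost without female head replicate 1 (0.0527) and without male head replicate 1 (0.0510).

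Bodies were then compared with gonads. In males 13 of the 36 members were called higher in bodies than in testes, beside 24.0% of all genes, and 0 were called lower by edgeR, beside 2.89%. With DESeq2 size factors it was 12 and 1 members, beside 17.9% and 16.6% of all genes. For the lower direction 2 members had an unadjusted p under 0.05. The DESeq2 Wald test called 3 of 36 members lower, beside 2326 of all 12597 genes. When only male bodies and testes entered the fit, 6 of 31 members were called lower, beside 2422 of all 12085 genes. These 6 were Obp22a, Obp44a, Obp50a, Obp56f, Obp56i and Obp99a. With replicate as a block, Obp19c was called higher in male bodies (log2 1.24, adjusted p = 0.0284). In females 14 members were called higher in bodies than in ovaries, beside 19.6% of all genes, and 0 lower by edgeR and by DESeq2, beside 0.127%, with 1 at an unadjusted p under 0.05. The 12 members called higher in bodies than in gonads in both sexes were Obp18a, Obp19d, Obp56a, Obp56d, Obp57a, Obp57b, Obp57c, Obp83cd, Obp83ef, Obp83g, Obp99b and Obp99c. The share of all genes called so in both sexes was not computed, and these members are only listed.

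Obp57c had 42.5 and 16.5 CPM in female bodies against 0.549 and 0.22 CPM in ovaries, and 63.7 and 41.5 CPM in male bodies against 0.301 and 0.291 CPM in testes, at log2 6.28 (SE 0.62) in females and 7.46 (SE 0.66) in males. Obp99c, a Minus-C gene, had 548 and 304 CPM in female bodies against 18.0 and 4.30 CPM in ovaries, and 816 and 924 CPM in male bodies against 19.0 and 15.3 CPM in testes. The Dimer genes Obp83cd and Obp83ef, which share the ends of their spans, were both higher in bodies in both sexes. Obp83cd had 9.94 and 10.2 CPM in male bodies against 0.516 and 0.549 CPM in testes. Calls lost without a library were those of Obp19b (adjusted p = 0.221 without testis replicate 2), Obp18a (0.0755 without testis replicate 1) and Obp56a (0.0544 without testis replicate 2) in males, and of Obp8a (0.0532 without ovary replicate 2) and Obp28a (0.0501 without replicate 1 of female bodies and ovaries) in females, while Obp83cd and Obp19d were lost in females when only bodies and ovaries entered the fit.

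Several members that were lower in female than in male bodies were also detected in testes. Obp22a, a gene of the seminal fluid list, had 29.7 and 23.1 CPM in male bodies and 81.2 and 55.1 CPM in testes, and Obp56f had 47.8 and 33.8 CPM in male bodies and 113 and 74.7 CPM in testes. Obp99d had 36.6 and 26.5 CPM in male bodies and 62.9 and 44.3 CPM in testes, and Obp56i had 10.2 and 5.94 CPM in male bodies and 25.0 and 15.5 CPM in testes. Every testis library was above every male body library in these 4 genes, but none of the 4 passed the test (adjusted p from 0.292 for Obp56f to 0.596 for Obp99d). Obp44a stood at 499 and 499 CPM in male bodies and at 1287 and 1173 CPM in testes, a log2 fold change of -1.30 (SE 0.48, adjusted p = 0.0696), and was called with replicate as a block (adjusted p = 0.0343), as was Obp99a (-1.37, SE 0.73, adjusted p = 0.19, and 0.0460 with the block). The accessory gland list moved with them, as the 6 of its 10 genes that had counts summed to 2552 and 1851 CPM in male bodies and to 5474 and 4665 CPM in testes. The 4 ejaculatory genes summed to 9931 and 7800 CPM in male bodies and to 9482 and 6401 CPM in testes. The testis markers were higher in testes as well. Their 4 genes with counts, of 6 listed, summed to 1177 and 685 CPM in male bodies and to 3432 and 1789 CPM in testes. Obp56g of the seminal list went the other way, with a mean of 595 CPM in male bodies and 421 CPM in testes. The part of gland RNA and of testis RNA in the Obp levels of the testis libraries was not tested.

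The same genes were found at trace levels in ovaries, more in replicate 1 than in replicate 2. Obp22a in ovaries was 1.30% of its level in testes in replicate 1 and 0.199% in replicate 2, Obp56f was 1.34% and 0.168%, and Obp56g was 1.41% and 0.379%. The male gland peptide Acp26Aa was 1.12% and 0.230% and Dup99B was 1.11% and 0.257% in the same libraries. In female bodies Obp56g was 1.13% and 0.0641% of its level in male bodies, and Acp26Aa was 1.17% and 0.115%. In female heads Acp26Aa was 0.468% and 0.163% of its male body level, while Obp56g was 14.0% and 24.7% and Obp56f was 8.92% and 13.7%. The source of the male transcripts in female libraries was not tested.

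**Figure D3:**
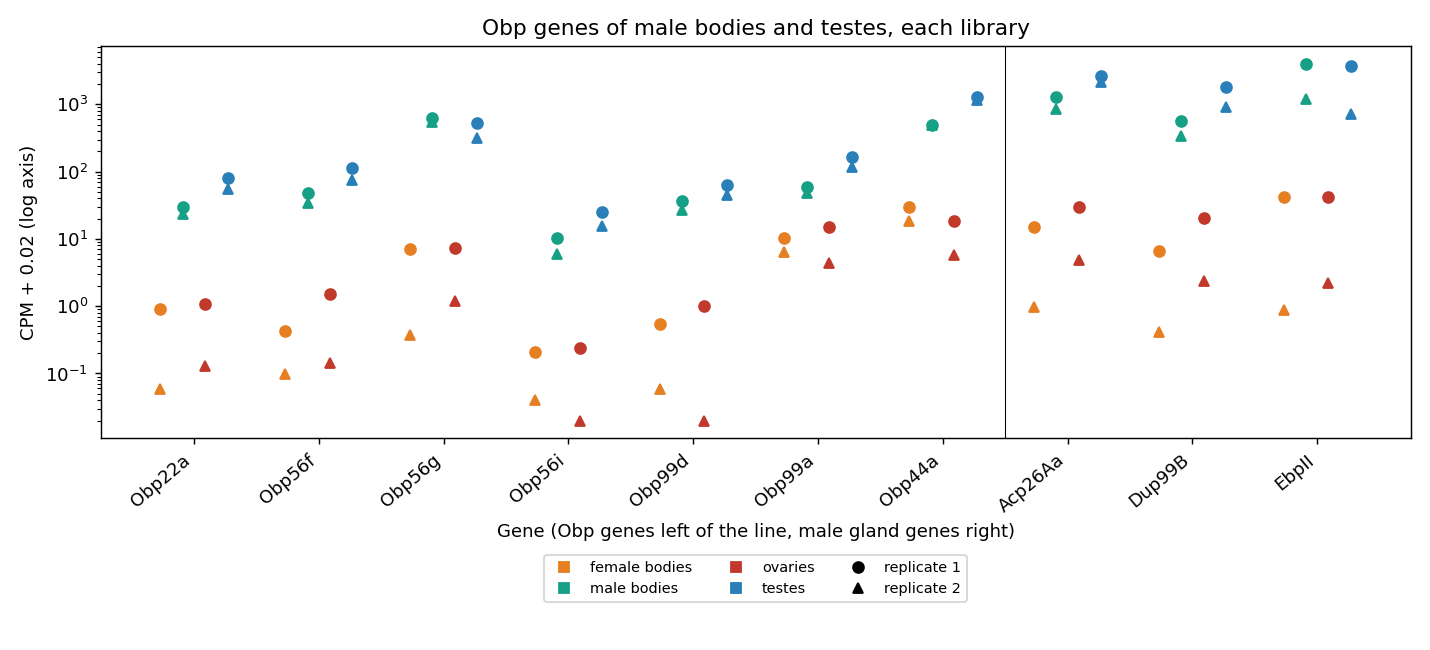
Points give CPM + 0.02 on a log axis for 7 Obp genes and 3 genes of male glands in female bodies, male bodies, ovaries and testes, with replicate 1 as circles and replicate 2 as triangles. The male libraries stand above the female ones, and in the female libraries replicate 1 stands above replicate 2 for the Obp genes and for the gland genes alike.

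Levels of whole adults were then set beside those of heads, without a test because the libraries differ in read length and in strand protocol. Both whole-adult libraries were above all 12 libraries of adult parts for 5 of the 39 members with at least 10 counts in some library of these conditions, or 12.8%, beside 8.21% of all genes. These were Obp19a, Obp83a, Obp83b, Obp83cd and Obp83g. For 2 of them, Obp19a and Obp83a, the lower whole-adult library was more than 3 times the highest part library, beside 1.49% of all genes.

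Obp83a and Obp83b (FBgn0011281 and FBgn0010403), neighbours known as OS-F and OS-E from olfactory hairs of the antenna, had 14.9 and 34.7 CPM and 6.21 and 15.6 CPM in whole adults. Heads had 0.208 to 2.61 CPM of Obp83a and 0.278 to 2.26 CPM of Obp83b. Obp19a had 4.99 and 10.9 CPM in whole adults and 0.139 to 0.980 CPM in heads. The gene lush had 13.9 and 14.6 CPM in whole adults and 1.81 to 2.85 CPM in heads. Among the 13 other odour-detection genes with counts, lush, a10, a5, Os-C and Jhedup were above 3 times every part library. These were 5 of the 13, beside 1.49% of all genes. Of these 13, 8 were above every part library, beside 8.21% of all genes, and Ir25a, Ir76b, EbpIII, Phk-3 and Est-6 were not. Ir76b, for instance, had 1.84 and 2.42 CPM in whole adults and 2.45 to 5.14 CPM in heads. Other head genes ran the other way, as Obp19d had 94.0 and 149 CPM in whole adults and 610.2 to 1056 CPM in heads, and Obp49a had 8.38 and 5.71 CPM in whole adults and 85.8 to 137 CPM in heads. The whole adults also differed from the parts in Act88F, with 17043 and 15158 CPM in whole adults and at most 3045 CPM in any part. Vm26Aa had 0.269 and 0.0396 CPM in whole adults, 19.6 CPM or more in heads and 7295 to 12159 CPM in female bodies and ovaries. Age, which is in doubt for the whole adults, sample, protocol and preparation cannot be told apart between these libraries.

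**Figure D4:**
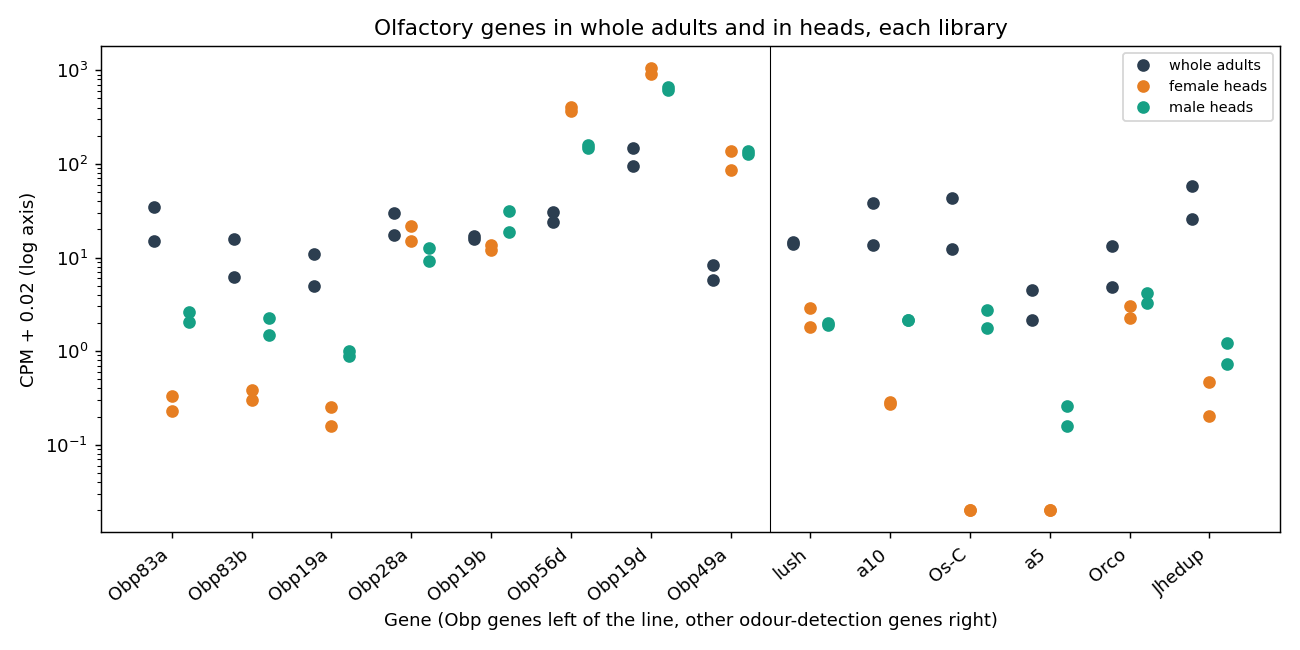
Points give CPM + 0.02 on a log axis in each library of whole adults, female heads and male heads for 8 Obp genes (left of the line) and 6 other genes of odour detection (right of it). Obp83a, Obp83b and Obp19a are highest in whole adults, at 4.99 to 34.7 CPM, while Obp56d, Obp19d and Obp49a are highest in heads.

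Over development, larvae differed from embryos in 9 members called higher, beside 31.7% of all genes, and in 6 called lower, beside 19.3%, among the 38 tested. Whole adults differed from larvae in 16 members called higher, beside 23.1% of all genes, and in 9 called lower, beside 17.8%. With DESeq2 size factors the split of all genes between whole adults and larvae was 26.3% higher and 13.1% lower, and the same numbers of members were called. Embryos, larvae and whole adults were the highest stage of 11, 11 and 16 of the 38 members, a tally not made over all genes.

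Obp99b marked the larva. It had 8 and 25 counts in embryos (0.0899 and 0.271 CPM), 9252 and 8718 CPM in larvae and 54.2 and 55.0 CPM in whole adults. The log2 fold change was 15.58 (SE 0.72, adjusted p = 2.7e-05) for larvae over embryos and -7.36 (SE 0.53, adjusted p = 0.00015) for whole adults over larvae. This single gene took 0.854% and 0.787% of all counts in the larval libraries. Its neighbour Obp99d, 1249 bases away on 3R, ran the other way, with 5.80 and 3.73 CPM in embryos, 0.0645 and 0.0475 CPM (3 and 2 counts) in larvae and 9.62 and 12.6 CPM in whole adults. Other Minus-C genes were also called higher in larvae than in embryos. Obp99c had 47.5 and 47.5 CPM in embryos, 578 and 430 CPM in larvae and 519 and 386 CPM in whole adults, and Obp99a had 52.6 and 59.0 CPM, 182 and 113 CPM and 42.9 and 47.2 CPM in the same order. Obp44a stood at 287 and 274 CPM in embryos and at 666 and 523 CPM in larvae (1.08, SE 0.22), but its fold fell under the threshold with DESeq2 size factors (0.89).

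The embryo was the highest stage of other members. Obp83cd (FBgn0046878), a Dimer gene, had 109 and 118 CPM in embryos, 7.33 and 2.95 CPM in larvae and 13.7 and 13.1 CPM in whole adults, with a log2 fold change of -4.46 (SE 0.43, adjusted p = 0.00019) for larvae over embryos. Its overlapping neighbour Obp83ef was higher in larvae, at 1.72 and 2.04 CPM in embryos, 40.7 and 9.17 CPM in larvae and 10.1 and 9.93 CPM in whole adults. Obp28a had 92.5 and 84.5 CPM in embryos, 39.5 and 6.68 CPM in larvae and 17.3 and 29.7 CPM in whole adults, and its difference between embryos and larvae was not called (-1.94, SE 0.73, adjusted p = 0.054). It was called with DESeq2 size factors (adjusted p = 0.0440), without a filter on low counts (0.0491), by the DESeq2 Wald test (0.00582), without larva replicate 1 (log2 -3.73, adjusted p = 0.000198) and without larva replicate 2 (log2 -1.16, adjusted p = 0.02). Without larva replicate 1 it was also called higher in whole adults than in larvae (log2 1.81, adjusted p = 0.00513). The larval libraries differed from each other in several such genes, with more in replicate 1. Obp56a differed between the embryo libraries, at 2.87 and 78.0 CPM (255 and 7193 counts).

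The Plus-C genes Obp58c and Obp58d, and Obp47a and Obp56b, were detected in embryos and larvae and had at most 16 counts in any adult library. Obp58c had 524 and 384 counts in embryos, 254 and 91 in larvae and 0 in whole adults, which makes it at least 62.7-fold lower in whole adults than in larvae. Obp47a had 140 and 221 counts in embryos, 75 and 23 in larvae, 1 and 2 in whole adults and 0 in all 12 libraries of adult parts. Obp56b had 792 and 837 counts in embryos and 338 and 73 in larvae, against 0 and 2 in whole adults. Obp58b, next to Obp58c, differed from it in the adult, with 40 and 27 counts in male bodies and 63 and 75 in testes.

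The members called higher in whole adults than in larvae included genes of the antennal and seminal lists and the 3 genes Obp57a, Obp57b and Obp57c. Obp19b had 0 counts in embryos and larvae and 810 and 793 in whole adults, at least 239-fold more than in larvae. Obp56f had 0 counts in embryos and larvae and 559 and 651 in whole adults, at least 180.2-fold more than in larvae, and Obp57a was at least 107.8-fold and Obp19a at least 117-fold higher by the same floor. Obp19d had 0.0899 and 0.0434 CPM in embryos, 0.538 and 0.356 CPM in larvae and 94.0 and 149 CPM in whole adults (8.07 over larvae, SE 0.42). Of the seminal list, 4 of 5 tested genes were called higher in whole adults than in larvae and 0 lower, and of the antennal list 4 of 7 were called higher and 1 lower. The lower gene was Obp56d, with 71.7 and 70.4 CPM in embryos, 562 and 241 CPM in larvae and 30.9 and 23.6 CPM in whole adults. Of the other genes of odour detection, 11 of 13 tested were higher in whole adults, among them Orco and lush, and 1, Phk-3, was lower. Beside these list counts, 23.1% of all genes tested were called higher in whole adults than in larvae and 17.8% lower.

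Leaving out a library ended 5 calls between larvae and embryos, with an adjusted p of at most 0.0743 for Obp56h, 0.0545 for Obp44a (both without embryo replicate 2), 0.0546 for Obp56i, 0.0763 for Obp56g (both without larva replicate 1) and 0.152 for Obp58d (without embryo replicate 1). The median log2 fold change of all genes for larvae over embryos was 0.31 with all libraries and 0.26 without larva replicate 1. Between whole adults and larvae it ended the calls of Obp83cd (0.0798) and Obp50e (0.0816), without whole-adult replicate 2, and of Obp8a (0.117) and Obp19c (0.0601), without whole-adult replicate 1.

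The Obp genes lie in groups on the chromosomes, and 31 of the 51 were in 9 groups with gaps of at most 10000 bases. On X, Obp19a to Obp19d span 5236 bases (X, 20415744 to 20420979, dm6), with Obp19c on the minus strand and the other 3 on the plus strand. Each of these 4 had its own order of conditions. Obp19a was highest in whole adults, Obp19b was at similar levels in heads and whole adults (12 to 31.3 CPM), Obp19c was highest in female bodies and ovaries, and Obp19d was highest in heads. Across the 9 condition means of log2(CPM + 0.5), Pearson's r was 0.73 for Obp19a and Obp19b, 0.07 for Obp19b and Obp19c and 0.23 for Obp19c and Obp19d. Values of r are given only as a description, because adult parts and whole animals were scaled apart and differ in protocol.

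**Figure D5:**
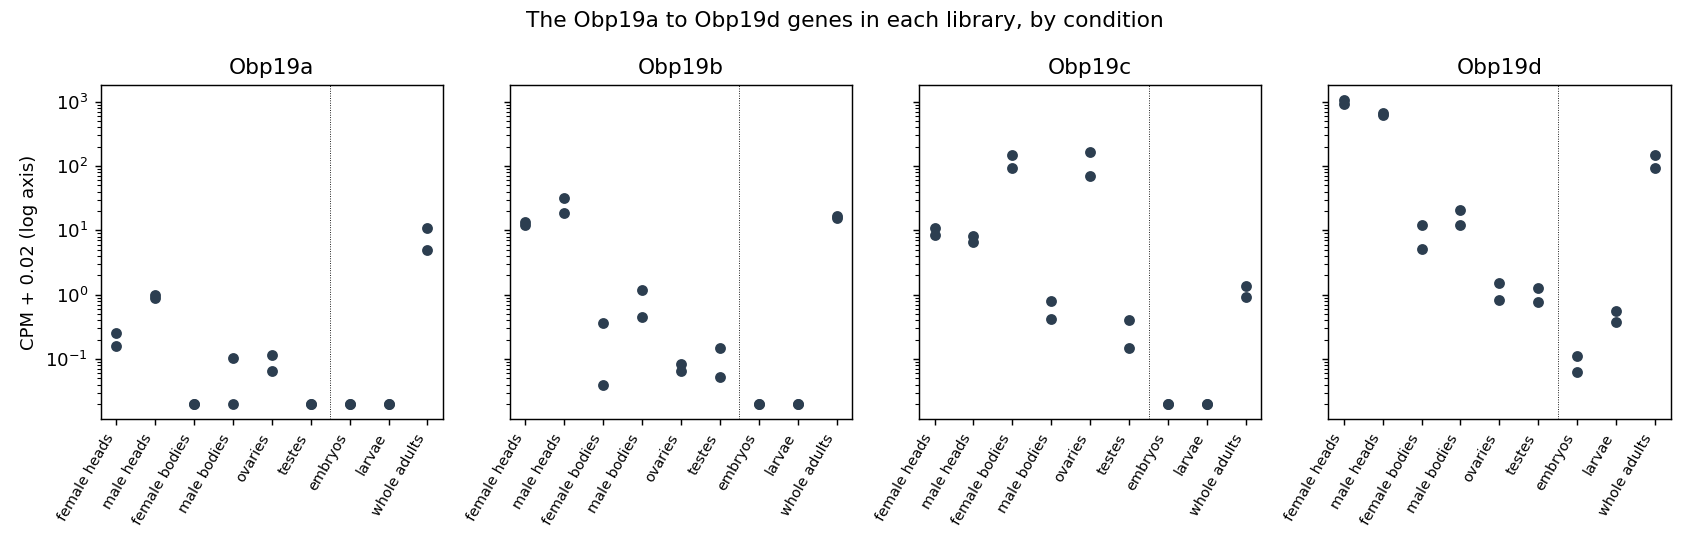
Points give CPM + 0.02 on a log axis in each library of the 9 conditions for the 4 genes of the group on X, with adult parts left of the dotted line. Obp19c reaches 70.3 to 165 CPM in female bodies and ovaries, where Obp19d stays at or under 12.1 CPM.

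Groups differed in how alike neighbours were. On 2R, Obp57c, Obp57b and Obp57a span 2175 bases on the same strand, and r was 0.99 between Obp57c and Obp57b and 0.89 between Obp57b and Obp57a. Obp57c had 123 to 173 CPM in heads, 16.5 to 63.7 CPM in bodies and at most 0.549 CPM in gonads, while the ranges of Obp57a in heads (39.3 to 62.4 CPM) and in bodies (23.0 to 103 CPM) overlapped. On 3R, r was 0.99 between Obp83a and Obp83b. In the group of 6 from Obp56a to Obp56f, which spans 16254 bases of 2R, r fell between 0.05 for Obp56e and Obp56f and 0.76 for Obp56b and Obp56c. Obp99d and Obp99b had the lowest value of the neighbouring pairs, at -0.26.

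Members of low level complete the family. Obp46a, Obp50a, Obp57e, Obp84a and Obp93a stayed at or under 0.861 CPM in every library, with Obp50a at its highest in testes (40 and 24 counts). The levels of Obp84a and Obp93a are too low because other genes cover most of their spans. Obp50d had 33 and 10 counts in male bodies and 72 and 40 in testes, and 0 in heads, female bodies and ovaries. Obp50e reached 4.13 and 4.70 CPM in embryos and stayed at or under 0.430 CPM in adults. Obp8a, a Minus-C gene on the seminal list, had 3.61 and 3.22 CPM in female heads, 2.76 and 2.27 CPM in male heads, 0.268 and 0.158 CPM in female bodies and 1.91 and 1.37 CPM in male bodies. Obp18a had 8.08 to 25.9 CPM in heads and bodies, 0.527 and 0.126 CPM in ovaries and 1.72 and 1.92 CPM in testes.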

How the data were processed

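By the submitters' processing notes, the authors trimmed reads with cutadapt 1.15, mapped them with TopHat2 2.1.1 to the dm6 genome and deposited 1 table of read counts per gene without normalization. The counter is not given in the sources used here. Of the 17825 gene identifiers, 17742 were matched to a symbol in the Ensembl annotation, the table's other columns held 0 samples of other series, and the 3487 genes wholly overlapped by others all had counts of 0. Members and lists were chosen with earlier results of these data known.

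The deposited counts were tested with edgeR 4.0.16 (R 4.3.3; TMM, filterByExpr with a minimum count of 10, quasi-likelihood test, Benjamini-Hochberg adjustment over all genes tested) and with DESeq2 1.42.0 as an alternative. Adult parts (12 libraries) and whole animals (6 libraries) were fitted apart, since their read length and strand protocol differ, and the spread was estimated over all conditions of a fit. Tables and plots were made with Python 3.11.15, numpy 2.4.6, pandas 2.3.3 and matplotlib 3.10.9. Counts were also simulated from a negative binomial, with each gene's mean over all libraries of a fit and its estimated spread. Changes were set in 100 genes of each size, drawn only from genes above a minimum mean count. In the adult parts (12349 genes), 72% of changes of log2 3 and 9% of changes of log2 1.5 were called. In the whole animals (12195 genes) it was 88% and 51%. These rates need not hold for members of lower count, or where many genes change.

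Replicate numbers come from the sample titles. Over the 15 pairs of adult parts, the deviations of replicate 1 from the group mean correlated at 0.34 to 0.78, so the numbers were taken as pairs there, and blocked values stand beside the results whose call they change. Named with values were the called members (the 6 largest a direction in full), the 5 members highest per kb in a condition, the antennal, seminal, taste, Minus-C and Dimer lists, members at 0, and other genes of odour detection. Alternatives were DESeq2 size factors, the DESeq2 Wald test, no filter, a replicate block, the compared conditions alone, no minimum fold, each library left out, CPM of total counts and exon length. Left-out pairs, replicate 1 of both bodies and replicate 1 of female bodies with ovaries, were added after seeing the data.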

Additional observations from a re-analysis of the deposited data

Results flagged for a closer look

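The change of heads over bodies differed between females and males for 8 members, by the test of the difference itself. The log2 difference, females minus males, was 8.93 (SE 1.39, adjusted p = 0.0024) for Obp56f, 8.11 (SE 1.19, adjusted p = 0.0018) for Obp99a, 7.21 (SE 1.89, adjusted p = 0.019) for Obp99d and 7.13 (SE 1.68, adjusted p = 0.013) for Obp56g. It was 4.30 (SE 0.69, adjusted p = 0.0028) for Obp44a, 3.37 (SE 0.77, adjusted p = 0.011) for Obp8a and 2.42 (SE 0.59, adjusted p = 0.014) for Obp56d. It was -7.29 (SE 0.84, adjusted p = 0.00068) for Obp19c, which was lower in heads than in bodies in both female replicates and higher in both male replicates. The bodies of the sexes also differed in ovary and male gland transcripts, and the part of these organs in the 8 differences was not tested.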

How the results depend on the processing

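Of the 131 calls of members over the 9 comparisons, 97 held in every alternative in which the gene could be tested, 34 were lost in at least 1 and 0 changed direction. Between female and male heads, where edgeR called 0 members, the replicate block gave 1 (beside 8 of all 12597 genes) and the DESeq2 Wald test gave 1 (beside 32). For the difference of head over body changes the DESeq2 Wald test gave 14 in place of 8, beside 5310 in place of 4386 of all genes. With the replicate block the counts of the other comparisons stayed within 1.5 times, and the numbers do not pair the whole-animal libraries (r from -0.09 to 0.16 over 3 pairs), where the fit with the replicate block ended the calls of Obp58d between larvae and embryos (adjusted p = 0.0645) and of Obp8a between whole adults and larvae (adjusted p = 0.0511). DESeq2 size factors moved the median of all genes by 0.36 (females, heads over bodies), -0.55 (male bodies over testes), -0.51 (female over male bodies), 0.50 (the difference of head over body changes), -0.11 (males, heads over bodies), -0.20 (larvae over embryos) and 0.20 (whole adults over larvae) on the log2 scale. CPM across the parts therefore carry an uncertainty of this size, and 2 libraries a condition limit the spread estimate.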
